A study of Rattus norvegicus with 8 samples.

Results

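The genes described here encode receptors for neurotransmitters: the GABA, glutamate, acetylcholine, serotonin, adrenaline, ATP, dopamine and opioid receptor families, read in the pituitary of nursing rats. They were taken by gene symbol from the array's own annotation, with no use of measured values. The symbol pattern took in 152 probes with 121 gene names, of 26257 genes on the array. Of these names 114 are receptor genes, with 140 probes, and 7 are not: the peptidases Htra1, Htra2, Htra3 and Htra4, the membrane protein Grina, the scaffold Grid2ip, and Polr2m, which the array still lists under a glutamate receptor-like name. Receptor counts below leave out those 7. Drd2, the main dopamine receptor of the gland, lies outside the pattern and is given with the transmitter pathway genes.

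The tissue was whole pituitary of lactating Wistar dams on postpartum day 7, kept in an RNA stabiliser after removal. All 8 dams were thus nursing mothers. The groups were 4 control samples and 4 samples of dams exposed to TCDD, a dioxin that activates the aryl hydrocarbon receptor (AhR), and the comparison asks which pituitary messenger RNAs differ between them. The labels give no dose, exposure day or age, and whole tissue joins the anterior, intermediate and posterior lobes.

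Neurotransmitter receptors are of 2 kinds. Ligand-gated channels are built from several subunits around an ion pore, so a gene here often encodes only a part of a receptor, while G protein-coupled receptors are single proteins that raise or lower cAMP or release calcium from stores. In the pituitary the hypothalamus sends dopamine, GABA and other signals through portal blood and through nerve endings in the intermediate and posterior lobes. Endocrine cells are electrically active, and GABA, acetylcholine and ATP acting on them are known to alter hormone release.

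Each value below is the log2 processed signal of a probe minus the log2 75th percentile of its array, so a value of 0 is a signal at that percentile and 1 unit is a 2-fold step. A probe's level depends on its own sequence, so levels are compared between arrays and never between probes. The 75th percentile of signal lay between 765 and 932 on the 8 arrays, and the share of spots well above background between 71.1% and 73.9%. All 10 listed markers of endocrine pituitary cells, Prl and Gh1 among them, were well above background on every array, as were 9 of 11 markers of the posterior lobe and glia. Oligodendrocyte Mog was so on 0 arrays and astrocyte Gfap on 2. The slides split as the groups did, with the controls on 1 and the TCDD samples on another, and their effects cannot be told apart. Control replicate 4 stood apart from the other controls in its erythrocyte markers, with a mean of 0.24 after centring each gene against -0.72 to -0.62, and in its posterior lobe markers, at -0.43 against 0.080 to 0.45. Nothing beyond the design's 4 rats per group says how samples were taken, so a p-value here stands against the spread of these samples, part of which may be technical.

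Of the 114 receptor genes, 64 had a probe well above background on at least 1 array, and 58 met the requirement of 4 or more of the 8 arrays used for testing (50.9%, against 66.1% of all genes on the array). Of these, 52 were well above background on all 8 arrays. The other 50 genes had no probe well above background on any array, which limits what these probes can show and does not mean that a receptor is missing. Both GABA-B subunits were measured, as were 4 of 5 kainate, 5 of 7 NMDA, 5 of 8 P2Y, 4 of 6 AMPA and delta, 2 of 3 beta adrenergic and 4 of 7 P2X genes. Of the serotonin receptors 4 of 14 were measured, of the alpha adrenergic receptors 2 of 6, and of the metabotropic glutamate receptors 3 of 8. The remaining families were 9 of 19 GABA-A, 8 of 16 nicotinic, 2 of 5 muscarinic, 2 of 4 dopamine and 2 of 4 opioid genes. No receptor was well above background on all arrays of 1 group and none of the other.

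**Figure D1:**
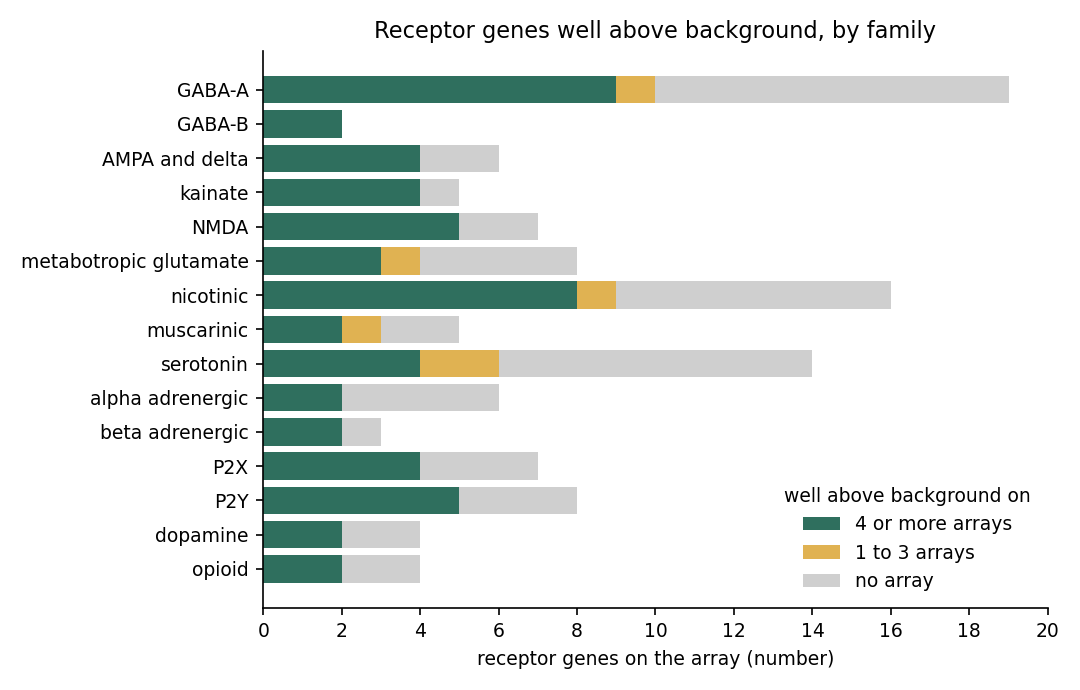
Number of receptor genes (horizontal axis) in each family, split by whether the best probe was well above background on 4 or more arrays, on 1 to 3 arrays or on no array. Of 19 GABA-A genes 9 are in the first class, while 4 of 14 serotonin receptor genes are.

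Which probe reads a gene mattered to what could be seen. Of the 22 receptor genes with more than 1 probe, 6 had a probe on 4 or more arrays and another that was not, Chrna7, Gria2, Gria3, Htr2c and Oprm1 among them. For the AMPA receptor genes Gria2 and Gria3 a probe of each is shown, from related stretches of sequence. That pair is of different genes, and each of them also has a split between its own probes. The Gria2 probe shown was well above background on 8 of 8 arrays, and another Gria2 probe, not shown, on 0 of 8. The Gria3 probe laid against the Gria2 probe shown shares 36 of 50 aligned bases and was above background on 0 of 8 arrays. Another Gria3 probe was on 8 of 8. Capitals mark the bases equal in both, read 5′ to 3′.
Gria2 probe, rn4 chr2:172269214-172269273, minus strand: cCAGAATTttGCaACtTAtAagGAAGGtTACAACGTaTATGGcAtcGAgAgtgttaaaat
Gria3 probe, rn4 chrX:3459714-3459773, minus strand: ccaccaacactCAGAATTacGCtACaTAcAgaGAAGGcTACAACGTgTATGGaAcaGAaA
The longest run of equal bases is 8, so the dark Gria3 probe is related to the Gria2 probe without matching it.

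For Oprm1, the mu opioid receptor, the probe that was read is assigned in the files to a transcript variant and lies downstream, in the genome, of the probe for a stretch that stayed dark. They are printed because the opioid result below rests on the first alone.
Oprm1 probe on 6 of 8 arrays, rn4 chr1:37577390-37577449, plus strand: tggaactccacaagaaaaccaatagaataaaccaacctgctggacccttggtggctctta
Oprm1 probe on 0 of 8 arrays, rn4 chr1:37568914-37568973, plus strand: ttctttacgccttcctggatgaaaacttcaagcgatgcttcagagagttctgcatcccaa
A further Oprm1 probe, at rn4 chr1:37588681-37588740, was also on 0 arrays. No capitals are used in these, as no part is singled out. The files give the probe positions in the rn4 build, and no gene models of that build were used here, so exons and UTRs are not stated.

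**Figure D2:**
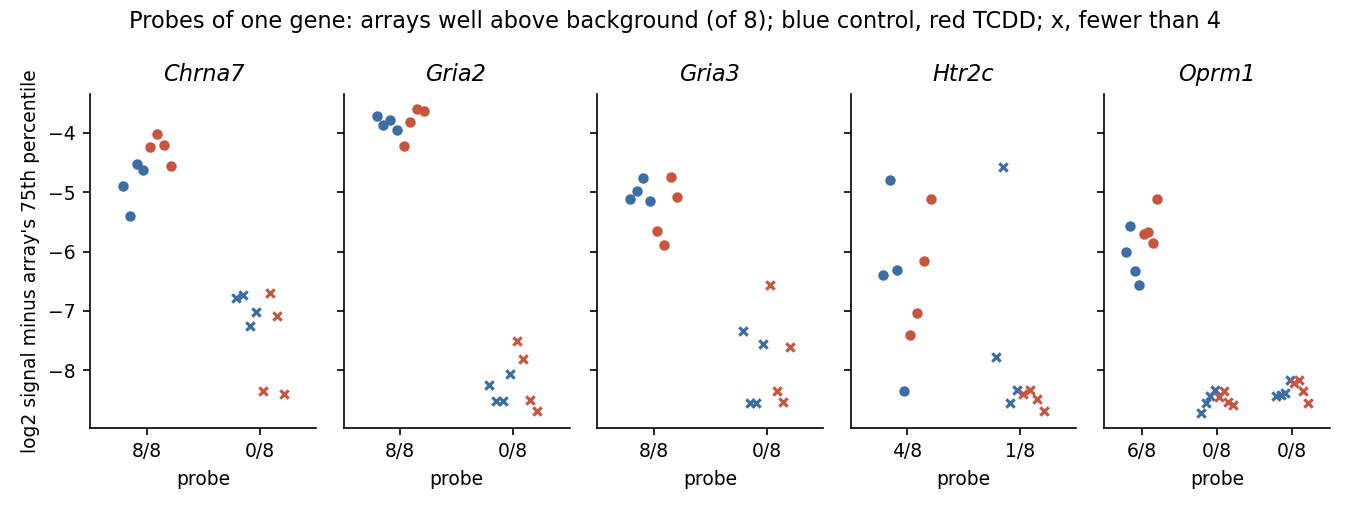
Values on the 8 arrays (vertical axis, log2 signal minus the array's 75th percentile) of each probe of 5 of the receptor genes whose probes split; the label under a probe is the number of arrays of 8 on which it was well above background, blue points are control and red TCDD, and crosses mark probes on fewer than 4 arrays. Within each gene 1 probe is well above background on 4 to 8 arrays and the others on 0 or 1.

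Between control and TCDD dams no receptor gene passed the threshold. With limma's moderated test and Benjamini-Hochberg adjustment over the 17361 genes measured, 0 of 58 receptor genes had an adjusted p under 0.05, and 14 of all genes did (0.0806%). The smallest adjusted p of a receptor was 0.357. At an unadjusted p under 0.05 there were 6 receptor genes (10.3%), against 10.7% of all genes. Of the 58 genes 33 lay higher with TCDD and 25 lower (56.9% higher, against 56.4% of all genes), their median difference was 0.015 on the log2 scale against 0.020 for all genes, and single differences ran from -0.73 to 0.61. These shares were close to those of the whole array. The count of 14 over all genes was 11 without control replicate 4, 6 without TCDD replicate 3, 3 without TCDD replicate 2 or 4, 1 without control replicate 1 or 2, and 0 without control replicate 3 or TCDD replicate 1.

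The precision differed between receptors. The 95% interval of the difference lay within 2-fold either way for 51 of the 58 genes and within 1.5-fold for 31, so for those a larger difference lies outside the interval. For the other 7, Htr2c and Htr2b among them, the interval reached past 2-fold. The median standard error of a receptor's difference was 0.16, against 0.10 over all genes. In whole tissue, fewer cells of a type and less RNA per cell cannot be told apart, and this holds for every difference below.

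**Figure D3:**
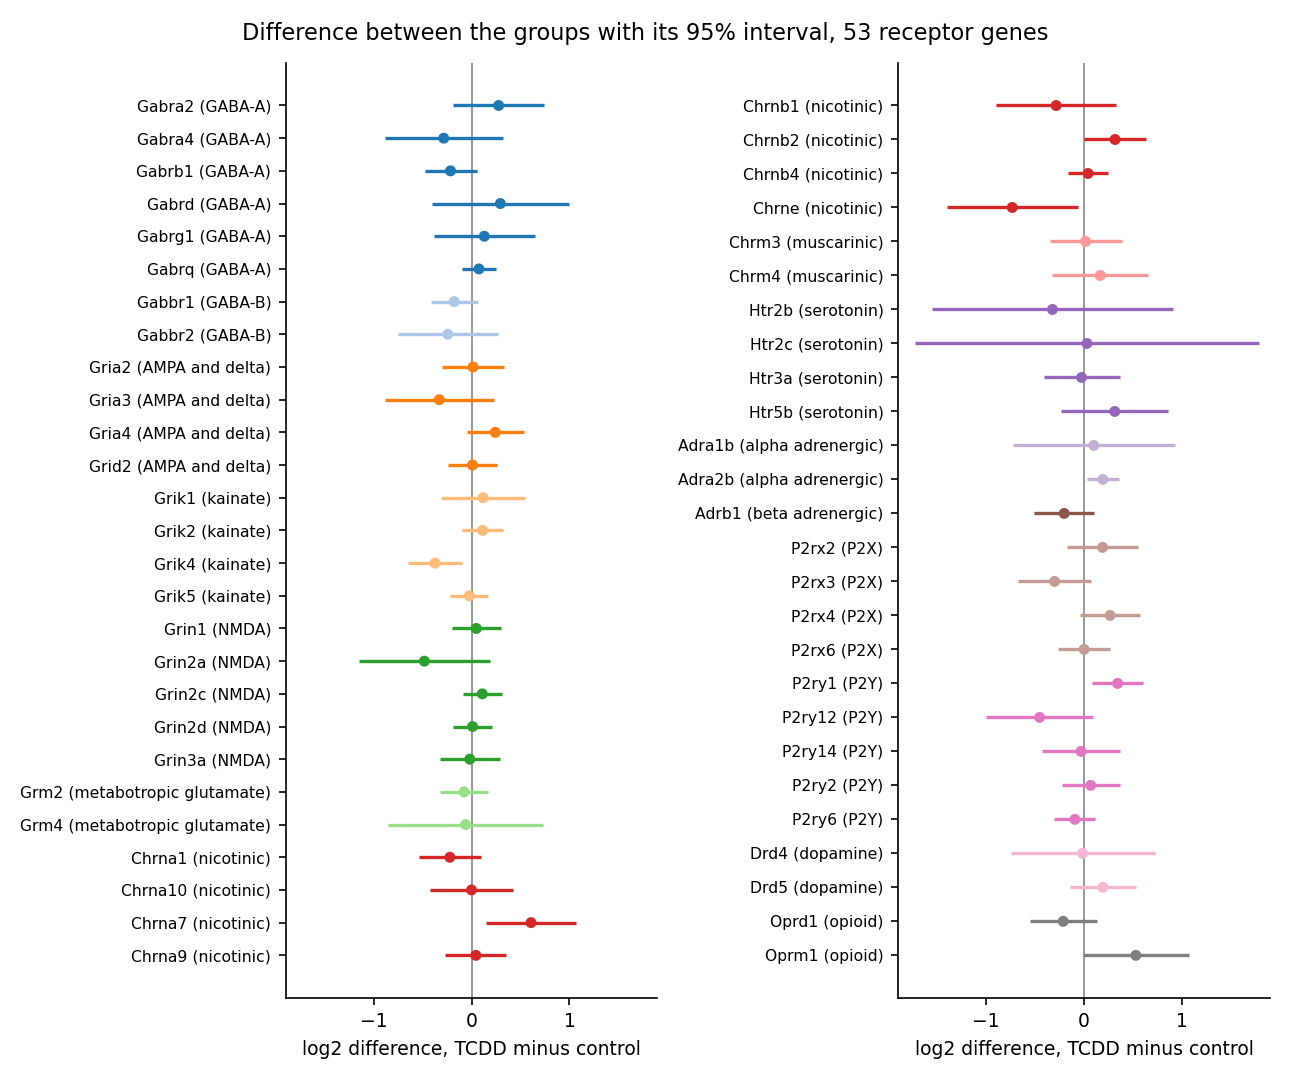
Log2 difference, TCDD minus control (horizontal axis; points), with its 95% interval (lines) for 53 of the receptor genes, coloured by family. The intervals of 6 genes lie to one side of 0 (Grik4, P2ry1, Chrna7, Adra2b, Chrne and Chrnb2), and those of Htr2b and Htr2c are among the widest.

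In 2 of the 58 receptor genes (3.45%) the groups did not overlap, P2ry1 and Adra2b, both higher in all 4 TCDD samples. Over all genes 7.1% had groups that did not overlap, 5.19% with TCDD higher. P2ry1 encodes a receptor for ADP that releases calcium from stores. Its values were -3.76, -3.58, -3.96 and -3.60 on the control arrays and -3.29, -3.49, -3.53 and -3.21 on the TCDD arrays. The difference was 0.34 ± 0.11 (SE), with a limma adjusted p of 0.357 and an exact two-sided permutation p of 0.029, the smallest that 70 assignments can give. Any gene whose groups of 4 do not overlap has this permutation p, so for both genes it only restates the lack of overlap. Adra2b, an adrenaline receptor that lowers cAMP, read -2.35, -2.33, -2.48 and -2.48 in the controls and -2.26, -2.24, -2.28 and -2.08 with TCDD. The gap between the groups was narrow for both genes. The Adra2b difference was 0.19 ± 0.071 (SE; limma adjusted p = 0.408, exact permutation p = 0.029).

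The scaling decided which receptors were separated in this way. After median centring, quantile normalization or in the deposited table, neither P2ry1 nor Adra2b was free of overlap, though both stayed higher with TCDD, and Grik4 was in their place. With normexp background correction and quantile normalization applied together, Grik4, Grin2a and Oprm1 were, and the P2ry1 difference was 0.22 and that of Adra2b 0.10. These steps were changed at once in that setting, here and below. The setting also adds an offset of 50 to every signal, which by itself makes log2 differences of dim probes smaller. The part of the offset in the smaller differences was not tested. Leaving out TCDD replicate 4 raised the count to 7, leaving out TCDD replicate 3 or control replicate 4 raised it to 6, and leaving out control replicate 3 raised it to 4. Over all genes the share was then 10.9%, 11.0%, 13.2% and 10.5%. Groups already apart stay apart when an array is left out, so P2ry1 and Adra2b had to remain and the count could not fall. For 5 of 5 measured markers of red blood cells the mean lay higher with TCDD, none past the threshold (limma adjusted p 0.122 to 0.454). All 5 had an unadjusted limma p under 0.05, as did 10.7% of all genes. The groups did not overlap for Slc4a1 (1.39 ± 0.23, SE) and overlapped for the others. The mean of the 5 after centring was -0.72 to 0.24 in the controls and -0.012 to 0.67 with TCDD. The part of these markers in the receptor differences was not tested.

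Stretches before the start of these 2 genes are shown because TCDD acts through AhR, whose binding sites contain the letters GCGTG. Capitals mark GCGTG or its reverse complement CACGC, in the 250 bases upstream of the start (RefSeq, GRCr8), found on either strand.
P2ry1, GRCr8 chr2:147391411-147391660, plus strand: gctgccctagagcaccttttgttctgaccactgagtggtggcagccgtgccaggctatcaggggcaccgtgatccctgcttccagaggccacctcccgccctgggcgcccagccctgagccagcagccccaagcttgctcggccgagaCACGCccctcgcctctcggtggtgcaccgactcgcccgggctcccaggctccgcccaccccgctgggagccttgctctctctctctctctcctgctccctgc
Adra2b, GRCr8 chr3:135038231-135038480, plus strand: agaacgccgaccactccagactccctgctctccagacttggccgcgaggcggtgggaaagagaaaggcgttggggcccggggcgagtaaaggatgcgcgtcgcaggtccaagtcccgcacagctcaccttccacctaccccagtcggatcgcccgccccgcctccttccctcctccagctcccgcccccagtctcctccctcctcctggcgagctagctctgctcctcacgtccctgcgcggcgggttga
The P2ry1 stretch holds 1 match and the Adra2b stretch 0. Such a match is in 24 of 82 receptor promoters of the table (29.3%), in 16 of the 44 promoters of measured receptors (36.4%) and in 25.9% of all 33469 promoters. These shares were not tested against each other, and a match describes the sequence only.

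**Figure D4:**
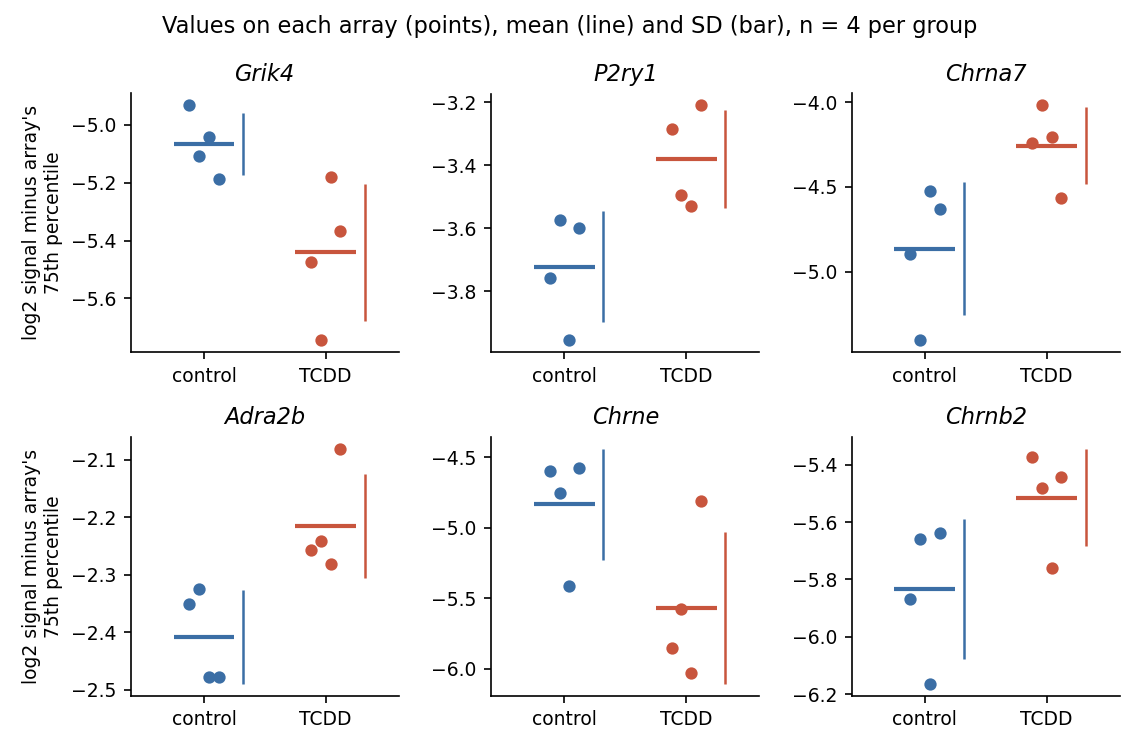
Values on each array (vertical axis, log2 signal minus the array's 75th percentile) of the 6 receptor genes with the smallest unadjusted p, with points for single arrays, horizontal lines for means and vertical bars for the SD (n = 4 per group). The groups are separate for P2ry1 and Adra2b and touch or overlap for Grik4, Chrna7, Chrne and Chrnb2.

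GABA is the main inhibitory transmitter, and its GABA-A receptors are chloride channels. The 9 subunits measured held alpha, beta and gamma members, among them Gabra2, Gabra4, Gabrb1, Gabrd, Gabrg1 and Gabrq. None passed the threshold, with a lowest adjusted p of 0.561, 6 lay higher and 3 lower, and differences ran from -0.29 to 0.29. Gabrb1, a beta subunit, which carries part of the GABA site, was -1.33 ± 0.18 (SD, n = 4) in controls and -1.55 ± 0.17 with TCDD, a difference of -0.22 ± 0.12 (SE; limma adjusted p = 0.561). Gabra4, an alpha subunit, was -4.60 ± 0.52 and -4.88 ± 0.30.

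The GABA-B receptor is a G protein-coupled pair in which Gabbr1 binds GABA and Gabbr2 carries the signal to the G protein. Both were well above background on all 8 arrays, and both lay lower with TCDD without passing the threshold. Gabbr1 read -1.22, -1.30, -1.11 and -1.27 in controls and -1.51, -1.43, -1.11 and -1.55 with TCDD. TCDD replicate 3 sat level with the highest control and the other 3 TCDD arrays below all controls, a difference of -0.18 ± 0.10 (SE; limma adjusted p = 0.603). Its 3 probes did not go one way. The differences were -0.18 and -0.15 for 2 of them and 0.34 for the other, which the files assign to a separate transcript record. The 60 bases of the last span 1263 bases of the genome. The probe with -0.15 and the one with 0.34 are shown in that order, with no capitals.
Gabbr1, rn4 chr20:1555345-1555404, minus strand: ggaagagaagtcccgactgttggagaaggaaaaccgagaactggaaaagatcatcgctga
Gabbr1, rn4 chr20:1577515-1578777, minus strand: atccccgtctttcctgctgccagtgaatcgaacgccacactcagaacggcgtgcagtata
Averaging the 3 probes gave a difference of 0.0043. Gabbr2 was -0.21 ± 0.075 (SD) in controls and -0.45 ± 0.50 with TCDD, where TCDD replicate 2 read -1.02 and TCDD replicate 4 read 0.18.

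Glutamate, the main excitatory transmitter, opens AMPA, kainate and NMDA channels. Of the channel subunits 13 of 18 were measured. None passed the threshold, and 1, Grik4, had an unadjusted p under 0.05. Gria2, the subunit that makes AMPA channels impermeable to calcium, read -3.71, -3.87, -3.79 and -3.96 in controls and -4.22, -3.82, -3.60 and -3.64 with TCDD. The controls lay inside the TCDD range, and the difference was 0.013 ± 0.14 (SE; limma adjusted p = 0.988).

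The kainate subunits Grik1 and Grik2 can form channels by themselves, whereas Grik4 and Grik5 need a partner. Grik4 read -4.93, -5.11, -5.04 and -5.19 in controls and -5.47, -5.75, -5.18 and -5.37 with TCDD. Of the TCDD arrays 3 lay below all controls and TCDD replicate 3 level with the lowest. The difference was -0.37 ± 0.12 (SE; limma adjusted p = 0.357, exact permutation p = 0.057), and it was -0.12 after normexp background correction with quantile normalization. Its possible partners differed between the groups by less than their spread. Grik1 was 1.43 ± 0.047 and 1.55 ± 0.42, and Grik2 was -3.64 ± 0.16 and -3.53 ± 0.081. Grik5 was 3.16 ± 0.073 and 3.13 ± 0.15.

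NMDA channels need the glycine-binding subunit Grin1 together with a glutamate-binding Grin2 subunit. Grin1 read -4.06, -3.78, -4.05 and -3.60 in controls and -3.78, -3.85, -3.80 and -3.88 with TCDD. The TCDD values lay inside the control range, for a difference of 0.047 ± 0.11 (SE; limma adjusted p = 0.926). Grin2a was near the limit of measurement, exceeding background clearly in all 4 controls but in only 2 TCDD samples. It read -5.07, -5.22, -6.06 and -5.82 against -6.08, -6.58, -5.42 and -6.03, so the groups overlapped (-0.48 ± 0.29, SE; limma adjusted p = 0.621). The difference was -0.15 after normexp background correction with quantile normalization. Grin2c and Grin3a were measured on all 8 arrays, at -2.48 ± 0.12 and -2.37 ± 0.13 for the first and -0.086 ± 0.25 and -0.11 ± 0.16 for the second. The probe listed as Grin2d read 5.55 ± 0.047 in controls and 5.55 ± 0.17 with TCDD. In GRCr8 the gene Kdelr1 begins shortly after Grin2d ends, and which transcript this probe reads was not tested.

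Metabotropic glutamate receptors act through G proteins. Grm2 and Grm4 lower cAMP. Grm2 was -1.12 ± 0.034 in controls and -1.19 ± 0.22 with TCDD, and Grm4 was -2.99 ± 0.21 and -3.05 ± 0.77. The TCDD arrays of Grm4 ran from -3.80 to -2.01, a wider range than the controls' -3.21 to -2.72. A further Grm4 probe that overlaps this one in the genome gave -6.20 to -3.10 on the same arrays, with the same arrays at its ends.

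Acetylcholine acts on nicotinic channels and on muscarinic G protein-coupled receptors. The largest differences among the receptors, in both directions, were of nicotinic subunits, and none passed the threshold. Chrna7, which forms calcium-permeable channels of its own, read -4.90, -5.41, -4.53 and -4.63 in controls and -4.24, -4.02, -4.21 and -4.56 with TCDD. Of the TCDD arrays 3 lay above all controls. The difference was 0.61 ± 0.20 (SE; limma adjusted p = 0.362, exact permutation p = 0.057), and it was 0.15 after normexp background correction with quantile normalization. The files assign the probe to an Ensembl transcript, and the other Chrna7 probe, 53137 bases away in the genome, was well above background on 0 arrays. The latter is shown because it is the one the files tie to the RefSeq transcript.
Chrna7 probe on 0 of 8 arrays, rn4 chr1:117587580-117587639, minus strand: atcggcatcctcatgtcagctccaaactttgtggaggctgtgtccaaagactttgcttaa
The Chrna7 difference is thus that of 1 probe.

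Chrne is the epsilon subunit of the adult muscle receptor. It read -4.60, -4.75, -5.42 and -4.58 in controls and -5.85, -5.58, -6.03 and -4.81 with TCDD, where 3 arrays lay below all controls. The difference was -0.73 ± 0.29 (SE; limma adjusted p = 0.437, exact permutation p = 0.057), and -0.16 after normexp background correction with quantile normalization. Its muscle partners were Chrna1, at -1.82 ± 0.18 and -2.04 ± 0.24, and Chrnb1, at -0.72 ± 0.26 and -1.01 ± 0.55. Chrnd, the delta subunit of that receptor, was well above background on no array and was not tested. Chrnb2, a neuronal beta subunit, was -5.83 ± 0.24 and -5.51 ± 0.17 (0.32 ± 0.14, SE; limma adjusted p = 0.463), well above background on 3 control and 4 TCDD arrays, and alpha subunits it can join, Chrna2, Chrna4 and Chrna6, were not measured. After normexp background correction with quantile normalization the Chrnb2 difference was 0.029. Chrnb4 was -1.22 ± 0.096 and -1.18 ± 0.14, while Chrna9 and Chrna10, which form a channel together, were -4.60 ± 0.20 and -4.56 ± 0.22, and -4.53 ± 0.38 and -4.53 ± 0.18.

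Chrm3, a muscarinic receptor that releases calcium from stores, read -1.38, -1.79, -1.65 and -2.14 in controls and -1.77, -1.74, -1.88 and -1.49 with TCDD. The TCDD range lay inside the control range, for a difference of 0.016 ± 0.16 (SE; limma adjusted p = 0.987). Chrm4, which lowers cAMP, was -3.15 ± 0.17 and -2.99 ± 0.45. Each of the 2 probes of Chrm2 was well above background on 1 array.

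Among the monoamine receptors none passed the threshold. Htr2c, a serotonin receptor that releases calcium from stores, was well above background on 2 arrays of each group and read -6.39, -4.79, -6.31 and -8.34 in controls and -7.40, -7.03, -6.16 and -5.12 with TCDD. Its values spread so widely that the interval of the difference ran from 0.302 to 3.46 in fold. The other Htr2c probe was well above background on 1 array, control replicate 2, the array on which the first probe was highest. Htr3a, the serotonin-gated channel subunit, was steadier, at 0.066 ± 0.37 and 0.042 ± 0.075. Htr2b was -5.47 ± 0.44 and -5.79 ± 1.16, and Htr5b was -4.65 ± 0.37 and -4.33 ± 0.40. Htr1d, a receptor that lowers cAMP, was not well above background on any array.

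Adra1b, an adrenaline receptor that releases calcium from stores, read -3.81, -2.93, -3.42 and -4.49 in controls and -3.52, -4.28, -3.34 and -3.12 with TCDD. The groups overlapped fully, and the difference of 0.10 ± 0.36 (SE; limma adjusted p = 0.955) was -0.18 without control replicate 4. Adrb1, a beta receptor that raises cAMP, was -5.05 ± 0.28 and -5.25 ± 0.099. Adra2a was on no array well above background.

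Drd4, a dopamine receptor that lowers cAMP, read -0.43, 0.43, 1.05 and 0.98 in controls and 0.50, 0.63, 0.72 and 0.11 with TCDD. The controls held both the lowest and the highest value, and the difference was -0.014 ± 0.32 (SE; limma adjusted p = 0.994). Drd5, which raises cAMP, was -4.67 ± 0.32 and -4.48 ± 0.043. Drd1 and Drd3 were not measured.

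ATP and its breakdown products act on P2X channels and on P2Y G protein-coupled receptors. Of the 9 members measured, none other than P2ry1 had an unadjusted p under 0.05. P2rx2, an ATP-gated channel subunit, read -2.69, -2.92, -2.92 and -3.30 in controls and -2.93, -2.43, -2.93 and -2.78 with TCDD, and the groups overlapped (0.19 ± 0.16, SE; limma adjusted p = 0.733). P2rx4 was -3.44 ± 0.24 and -3.17 ± 0.15 (0.27 ± 0.13, SE; limma adjusted p = 0.536). P2rx3 was -0.67 ± 0.34 and -0.97 ± 0.14, and P2rx6 was -2.63 ± 0.031 and -2.63 ± 0.24. P2rx7 was not well above background on any array.

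P2ry12, an ADP receptor of platelets and microglia, was -1.92 ± 0.42 in controls and -2.38 ± 0.34 with TCDD (-0.45 ± 0.24, SE; limma adjusted p = 0.552). Markers of leukocytes and microglia lay lower with TCDD for 7 of 8 measured genes, with centred means of -0.12 to 0.16 in controls and -0.39 to 0.13 with TCDD, and their part in the P2ry12 difference was not tested. P2ry2, which responds to ATP and UTP, was -4.17 ± 0.24 and -4.10 ± 0.15. P2ry6, for UDP, was -1.63 ± 0.11 and -1.73 ± 0.15, and P2ry14 was -5.54 ± 0.33 and -5.57 ± 0.21.

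The opioid receptors Oprd1 and Oprm1, which lower cAMP, were the only opioid receptor genes of the 4 that were measured. Oprm1, read by the variant probe printed above, was well above background on 2 control and 4 TCDD arrays. Its values were -6.00, -5.56, -6.33 and -6.55 in controls and -5.70, -5.66, -5.85 and -5.11 with TCDD. Control replicate 2 lay among the TCDD arrays, and the difference was 0.53 ± 0.24 (SE; limma adjusted p = 0.479), or 0.16 after normexp background correction with quantile normalization. Oprd1 was -4.51 ± 0.29 and -4.72 ± 0.15. Both probes of Oprk1 and all 4 of Oprl1 were well above background on 0 arrays.

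Receptor genes were also set against each other from dam to dam, whatever the group. Over the 8 arrays, 106 of 1653 pairs of measured receptors (6.41%) had an unadjusted permutation p under 0.05, and none passed after adjustment over all pairs (lowest adjusted p 0.0820). That lowest value was of Gabbr1 with Gria4, with a Pearson's r of -0.87. Of the 106 pairs 55 had a positive r and 51 a negative r. These relations were looked at after the values had been seen. Among the pairs was that of Gabra2 and Gabrg1, whose probes lie in the GABA-A gene cluster on chromosome 14 with those of Gabra4 and Gabrb1, at chr14:39661796-39662852 and chr14:39951099-39951158 in rn4. Their Pearson's r was 0.86 (permutation p = 0.00722, adjusted 0.436; Spearman's rho 0.90, p = 0.00456, adjusted 0.419) and 0.84 without the 2 arrays farthest from the median of Gabra2. The other pairs within the cluster had r from 0.12 (Gabra2 with Gabrb1) to 0.57 (Gabra4 with Gabrg1). Gabra2 read -5.42, -5.05, -5.10 and -5.70 in controls and -5.16, -5.35, -4.55 and -5.10 with TCDD. Gabrg1 read -5.11, -4.75, -4.73 and -5.74 in controls and -5.01, -5.14, -4.69 and -4.96 with TCDD. On both probes control replicate 4 was lowest and TCDD replicate 3 highest.

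Those arrays were also the lowest and highest for the mean of the listed intermediate lobe markers. The 3 measured genes listed for melanotrophs, the endocrine cells of that lobe, were Pcsk2, Tbx19 and Oacyl. Their centred mean was -0.44 on control replicate 4 and 0.72 on TCDD replicate 3, with the other arrays between -0.29 and 0.29. Pcsk2 and Oacyl were each lowest and highest on these arrays. Tbx19 was not, with its lowest value on TCDD replicate 2 (0.66) and its highest on control replicate 3 (1.41). Pax7, the defining melanotroph factor, was on 0 arrays above background. Gabra2 followed these markers with r = 0.90 (permutation p = 0.00350; rho 0.76, p = 0.0368), 0.93 within groups and 0.70 without the 2 farthest arrays. Gabrg1 followed the posterior lobe markers with r = 0.79 (permutation p = 0.0122; rho 0.69, p = 0.0694), 0.98 within groups and 0.67 without the 2 farthest. It also followed the intermediate lobe markers, with r = 0.78 (permutation p = 0.0298; rho 0.81, p = 0.0218), 0.77 within groups and 0.83 without the 2 farthest. Of 116 relations of receptors with these lists of markers 9 had an unadjusted permutation p under 0.05. Of these, 8 had a positive r and 1 a negative r, that of Grik5 with the intermediate lobe markers (r = -0.88, permutation p = 0.00766). After adjustment 0 passed (lowest adjusted p 0.406), so none of the relations is established by these 8 arrays. The part that uneven amounts of the lobes play in receptor levels was not tested.

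**Figure D5:**
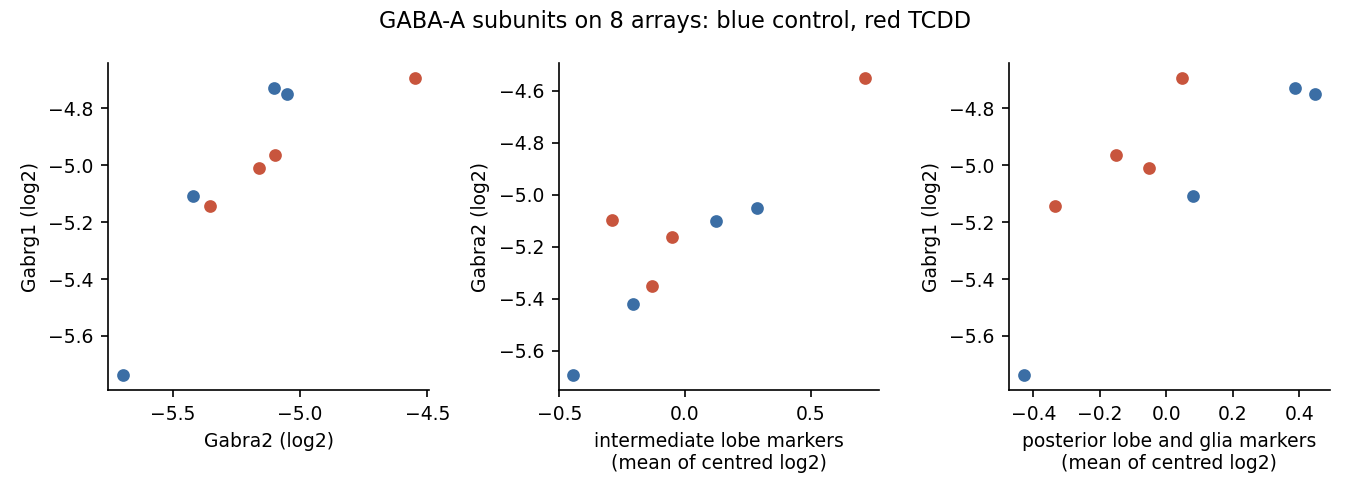
GABA-A subunits on the 8 arrays, blue for control and red for TCDD: Gabrg1 against Gabra2 (left), Gabra2 against the mean of the centred intermediate lobe markers (middle) and Gabrg1 against that of the posterior lobe and glia markers (right), all in log2 units. The r values are 0.86, 0.90 and 0.79, and in each panel control replicate 4 is the lowest point.

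The genes that make, carry and break down the transmitters were listed apart from the receptors. Of 57 such genes 47 were measured, 0 passed the threshold in either direction, and 29 lay higher and 18 lower with TCDD. At an unadjusted p under 0.05 there were 5 (10.6%, against 10.7% of all genes). Those higher were Bche, which breaks down choline esters, with a difference of 0.83 ± 0.28 (SE; limma adjusted p = 0.362), Pnoc, the nociceptin precursor, with 0.45 ± 0.14 (limma adjusted p = 0.333), Arrb1, a beta-arrestin, and Slc18a3, the vesicular acetylcholine transporter. The one that lay lower was Cacng2, which helps AMPA channels reach the membrane. For 2 of the 47 genes, Bche and Pnoc, the groups did not overlap, both with TCDD higher, where 5.19% of all genes did so. Bche read -5.25, -5.20, -4.86 and -6.25 in controls and -4.44, -4.37, -4.81 and -4.61 with TCDD. It was well above background on 3 control and 4 TCDD arrays. Its value on control replicate 4 lay below the lowest signal well above background on that array, -6.06. Pnoc read -4.86, -5.03, -4.86 and -5.19 in controls and -4.19, -4.80, -4.61 and -4.52 with TCDD, while no probe of Oprl1, the receptor for its peptide, was well above background.

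Drd2, through which dopamine restrains prolactin release, was 4.87 ± 0.090 (SD, n = 4) in controls and 4.80 ± 0.13 with TCDD. Its difference was -0.061 ± 0.083 (SE; limma adjusted p = 0.850), with an interval of -0.25 to 0.13. The enzyme of GABA synthesis, Gad1, was on 1 array above background, and Slc32a1, which loads GABA into vesicles, was on all 8, at -1.78 ± 0.47 and -1.77 ± 0.28. Chat, which makes acetylcholine, was on 0 arrays.

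Of the 7 names that are not receptors, 6 were measured and none passed the threshold. Polr2m was the 1 whose groups did not overlap, at 2.69 ± 0.061 in controls and 2.80 ± 0.034 with TCDD, a difference of 0.10 ± 0.056 (SE; limma adjusted p = 0.562). Its values were 2.74, 2.75, 2.66 and 2.62 in controls and 2.83, 2.75, 2.80 and 2.80 with TCDD, so the nearest arrays of the groups are equal to the decimals printed. These are of 1 of the 6 Polr2m probes, all well above background on 8 arrays. On the other 5 the TCDD mean was also higher, by 0.0038 to 0.19, and the groups overlapped. Htra3 was -3.63 ± 0.33 and -4.05 ± 0.43, and Htra4 was -4.06 ± 0.50 and -3.74 ± 0.25. Htra1 was -1.22 ± 0.23 and -1.26 ± 0.27, and Htra2 was 0.94 ± 0.085 and 0.88 ± 0.087.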

How the data were processed

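RNA of 8 pituitary samples was hybridised to 1-colour Agilent arrays. Per the file headers, Agilent Feature Extraction (version 10.7.1.1) read the images, and the deposited intensities are linear, background-subtracted per array, with probe positions in rn4. A deposited table of intensities with 1 shared distribution (median 56.3 per array) was an alternative; how its spots were combined is not given in the sources used here.

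From the log2 deposited processed intensity the log2 75th percentile of that array's non-control spots was subtracted. Outlier spots were left out and replicate spots averaged. Probes were kept if well above background on 4 or more arrays, and the one with the highest mean stood for its gene. Names were updated through RefSeq (GRCr8): 143 of the 152 member probes by accession and 9 by symbol.

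Groups were compared with limma 3.58.1 (R 4.3.3), two-sided, threshold 0.05, after a test on simulated data. Single genes had an exact permutation test, and correlations were permuted over all orders of the 8 arrays (Python, numpy).

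The members and gene lists were chosen with earlier results of these data known. Values in every sample are given for genes past the threshold, with groups that do not overlap, or detected in 1 group only, and for 1 gene per family of a fixed list of 25 genes; others of that list by mean and SD. Values of 5 measured receptor genes are counted with their families and not reported singly here. Grik4, Chrna7, Chrne, Chrnb2, Oprm1, Grin2a, Gabra2, Gabrg1, the split probes and other members were named after their values were seen. The number of arrays limits precision.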

Additional observations from a re-analysis of the deposited data

Results flagged for a closer look

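In 8 of 116 groups of 4 samples, 1 array lay far from the other 3, by the gap to its nearest neighbour as a share of the group's range (Dixon's test). That is 6.90% of the groups, where chance gives about 5%. Control replicate 4 was the array apart for Htr5b, a serotonin receptor, at -4.10 (share 0.974), for Grin2d at 5.62 (0.930), for Chrna9 at -4.90 (0.928) and for Grin3a at 0.28 (0.856). Control replicate 3 was apart for Chrm4 at -2.91 (0.892) and for P2ry6 at -1.79 (0.841). TCDD replicate 4 was apart for Htr2b at -7.51 (0.859) and TCDD replicate 2 for P2rx4 at -3.40 (0.851).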

How the results depend on the processing

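Over all genes the count past limma's threshold, 14, became 9 with median centring, 1 with quantile normalization, 1 in the deposited table, 0 with normexp background correction and quantile normalization together and 0 with the replicate number as a block, and ranged from 0 to 11 without 1 array. The replicate numbers gave no pairing: deviations of same-numbered samples correlated at -0.019, -0.071, -0.028 and -0.096. Under all alternatives, the block included, 0 receptor genes passed, with 4 to 10 at an unadjusted p under 0.05. Among the 24 named receptors the lowest limma adjusted p was 0.290. The number of receptors without overlap, 2, was 1 with median centring, quantile normalization and the deposited table. It was 2 to 7 without 1 array, where it cannot fall. The receptor count above background stayed between 52 and 64. Of 24 named receptors 15 kept their direction throughout. Signs turned with normexp and quantile normalization together for Adra1b (-0.031), Chrm3 (-0.034), Grin1 (-0.038), Htr2c (-0.039) and P2ry2 (-0.0098), with median centring for Chrm3 (-0.022), Gria2 (-0.025) and Htr2c (-0.0076), with quantile normalization for Chrm3 (-0.013), Gria2 (-0.032) and Grin1 (-0.0048), in the deposited table for Chrm3 (-0.016), Gria2 (-0.034) and Grin1 (-0.00035), and with probes averaged for Gabbr1 (0.0043). Without 1 array the ranges spanned 0 for Adra1b (-0.18 to 0.35), Chrm3 (-0.12 to 0.14), Drd4 (-0.33 to 0.17), Gabrg1 (-0.090 to 0.25), Gria2 (-0.061 to 0.15), Grin1 (-0.015 to 0.14), Htr2c (-0.60 to 0.59) and P2ry2 (-0.015 to 0.15). The causes were not tested. The marker and pair correlations were added after seeing the data. Receptors that are dim over background, such as Htr2c and Oprm1, are limited by signal.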
